A study of Mus musculus with 6 samples.

Results

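The early B-cell factor (EBF) family of transcription factors comprises 4 genes in the mouse, Ebf1, Ebf2, Ebf3 and Ebf4, and all 4 were found by symbol among the 55341 genes of the count tables. The family was taken as a whole, but it was picked with its values in these libraries already known, so the differences of the 4 genes between treatments are described without a test. RNA was measured by sequencing of polyA-selected libraries from cultured cerebellar granule neurons (CGNs), with 3 libraries of DMSO cultures, the solvent control, and 3 libraries of cultures that received GSK-126, which inhibits EZH2. EZH2 is the enzyme of Polycomb repressive complex 2 (PRC2) that places trimethylation on lysine 27 of histone H3, a mark of silenced genes.

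Both groups came from mice of the CD1-IGS strain. Granule neuron precursors were purified from the cerebella of pups at postnatal days P6 to P8, plated, and given AraC at DIV2 to stop the division of non-neuronal cells. The labels give DIV3, which is read here as the day on which the agent was added. The study's methods state that the agent was added once and that cultures treated on that day were collected at DIV5. The labels call the material cerebellum although the titles name CGNs. One replicate is a culture made from the pooled cerebella of litters, and pups of both sexes were used. A p-value from a fit by group alone sets the difference against the spread between such cultures. In a fit with a block for replicate number, it is set against the spread of the difference between pairs of libraries of equal number.

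EBF proteins bind DNA as dimers through a zinc-binding domain found in no other family, and recognise a palindrome with the core CCCNNGGG. EBF1 is known for setting B-lymphocyte identity, EBF2 for fat cell and neuronal development, and EBF3 for the differentiation and migration of neurons. In the developing cerebellum, EBF2 is known for the patterning and survival of Purkinje cells. EBF4 is the least studied of the family and has been linked to olfactory neurons.

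The promoters of the family are shown because the treatment acts on a chromatin mark that is known to gather at CpG islands, and because the 4 genes did not differ alike between the groups. The sequences are from RefSeq on GRCm38.p6, cover 250 bases before to 50 bases after the annotated start, and have every CpG dinucleotide in capitals. For Ebf1 the first of its 2 windows is given, and no window was matched for Ebf2.
Ebf3, chr7:137314396-137314695, minus strand: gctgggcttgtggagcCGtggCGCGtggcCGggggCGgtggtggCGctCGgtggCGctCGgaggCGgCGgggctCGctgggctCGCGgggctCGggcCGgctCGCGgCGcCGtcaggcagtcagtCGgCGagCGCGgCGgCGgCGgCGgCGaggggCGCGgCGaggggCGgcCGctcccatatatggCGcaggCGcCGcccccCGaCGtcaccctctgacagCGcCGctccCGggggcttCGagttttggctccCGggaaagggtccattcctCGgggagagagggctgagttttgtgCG
Ebf4, chr2:130295689-130295988, plus strand: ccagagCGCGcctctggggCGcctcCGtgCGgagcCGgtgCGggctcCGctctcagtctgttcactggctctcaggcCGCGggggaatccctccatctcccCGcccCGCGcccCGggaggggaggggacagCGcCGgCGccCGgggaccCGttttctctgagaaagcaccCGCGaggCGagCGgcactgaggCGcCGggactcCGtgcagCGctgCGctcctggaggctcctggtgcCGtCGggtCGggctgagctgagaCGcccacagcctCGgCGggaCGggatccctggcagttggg
Ebf1, chr11:44617850-44618149, plus strand: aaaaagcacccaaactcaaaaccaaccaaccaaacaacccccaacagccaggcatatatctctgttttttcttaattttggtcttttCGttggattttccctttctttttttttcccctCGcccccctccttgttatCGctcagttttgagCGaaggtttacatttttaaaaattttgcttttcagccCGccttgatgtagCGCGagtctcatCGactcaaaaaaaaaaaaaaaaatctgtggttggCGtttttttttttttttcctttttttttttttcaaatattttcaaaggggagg
The window of Ebf3 held 46 CpG dinucleotides and 77.0% G or C, which placed it at the 98.4th and the 97.6th percentile of 32851 windows from 27025 genes. The window of Ebf4 held 35 CpG dinucleotides and 74.3% G or C, at the 93rd and the 95.6th percentile. By contrast, the Ebf1 window shown held 9 CpG dinucleotides and 36.7% G or C. The second window of Ebf1, chr11:44619978-44620277, held 17 and 53.0%. Relative to the number expected from the C and G bases, CpG dinucleotides ranked otherwise. On that measure Ebf3 was at the 97.3rd percentile, the Ebf1 window shown at the 91.3rd and Ebf4 at the 82.9th. Whether promoter sequence has a part in the differences between groups was not tested. The median window held 7 CpG dinucleotides and 52.7% G or C. The core CCCNNGGG, which reads the same on both strands, was found in 1 of the 4 family windows, that of Ebf3, and in 13.7% of all windows. With T before the core and A after it, the motif was in none of the family windows and in 0.904% of all windows.

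The libraries held 7407189 to 13092763 counts on genes, of which 534 to 904 fell on the family. The libraries with the same replicate number in the 2 groups resembled each other, and those of replicate 2 stood apart in their neuron and glia markers. The summed level of 13 granule neuron markers, all of which were detected, was 8525 CPM (TMM-scaled counts relative to library size, as in the rest of the text) in DMSO replicate 2 and 6516 in GSK-126 replicate 2, and it was 3914 to 5885 CPM in the other 4 libraries. The summed level of 7 astroglial markers was 2291 and 2146 CPM in the libraries of replicate 2 and 3852 to 7334 CPM in the others. The cultures also held RNA of cells that are not neurons, with 8 fibroblast and meningeal markers at 7376 to 10310 CPM in sum. The cell type behind the EBF counts was not resolved, and in bulk RNA fewer cells of a type and less RNA per cell cannot be told apart. The target of the inhibitor and its paralogue were expressed in both groups, Ezh2 at 36.5 ± 6.97 CPM in the DMSO libraries and 33.6 ± 7.82 CPM in the GSK-126 libraries, and Ezh1 at 38.3 ± 4.57 and 37.3 ± 1.31 CPM (SD, n = 3). The inhibitor acts on the enzyme and not on its transcript, so these levels are no check of the treatment.

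Of the 4 members, Ebf3 alone had groups that did not overlap. Ebf3, a regulator of neuronal differentiation (ENSMUSG00000010476.14, chromosome 7, 137193673 to 137314445, minus strand), was at 6.92, 6.81 and 5.21 CPM with DMSO and at 15.4, 18.8 and 14.3 CPM with GSK-126, for replicates 1 to 3. The lowest GSK-126 library thus lay above the highest DMSO library. The means were 6.31 ± 0.954 CPM and 16.2 ± 2.38 CPM (SD, n = 3), a ratio of 2.56. Within the pairs of equal replicate number the ratios were 2.22, 2.77 and 2.74. These levels rested on 60, 73 and 60 counts with DMSO and on 203, 175 and 107 counts with GSK-126. Among all 16729 genes tested, 4.72% had all GSK-126 libraries above all DMSO libraries. As the family was chosen on this contrast, nothing is read from the count of 1 of 4 against that share.

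Ebf1, the B-lymphocyte factor that is also made in mural and mesenchymal cells (ENSMUSG00000057098.14, chromosome 11, 44617317 to 45008091, plus strand), was the most abundant member. Its level was 39.3, 58.8 and 44.6 CPM with DMSO and 37.3, 48.0 and 45.3 CPM with GSK-126. The groups overlapped, and replicate 2 was the highest library of each. The means were 47.6 ± 10.1 CPM and 43.5 ± 5.58 CPM (SD, n = 3), a difference smaller than either SD.

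Ebf2, known in Purkinje cell and brown fat development (ENSMUSG00000022053.13, chromosome 14, 67233292 to 67430918, plus strand), was the least abundant member. It was at 4.04, 2.42 and 5.21 CPM with DMSO and at 2.80, 3.55 and 4.14 CPM with GSK-126, from 26 to 60 counts per library. The GSK-126 libraries lay within the range of the DMSO libraries. A difference between means of 3.89 ± 1.40 and 3.50 ± 0.670 CPM (SD, n = 3) was not detectable at this depth, where counting error alone gives a coefficient of variation (CV) of 16.4%.

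Ebf4 (ENSMUSG00000053552.14, chromosome 2, 130295169 to 130370481, plus strand) was at 11.4, 16.2 and 12.3 CPM with DMSO and at 9.93, 11.5 and 7.61 CPM with GSK-126. Each GSK-126 library lay below the DMSO library of the same number, but GSK-126 replicate 2 lay above DMSO replicate 1, so the groups overlapped. The means were 13.3 ± 2.57 and 9.69 ± 1.97 CPM (SD, n = 3).

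**Figure D1:**
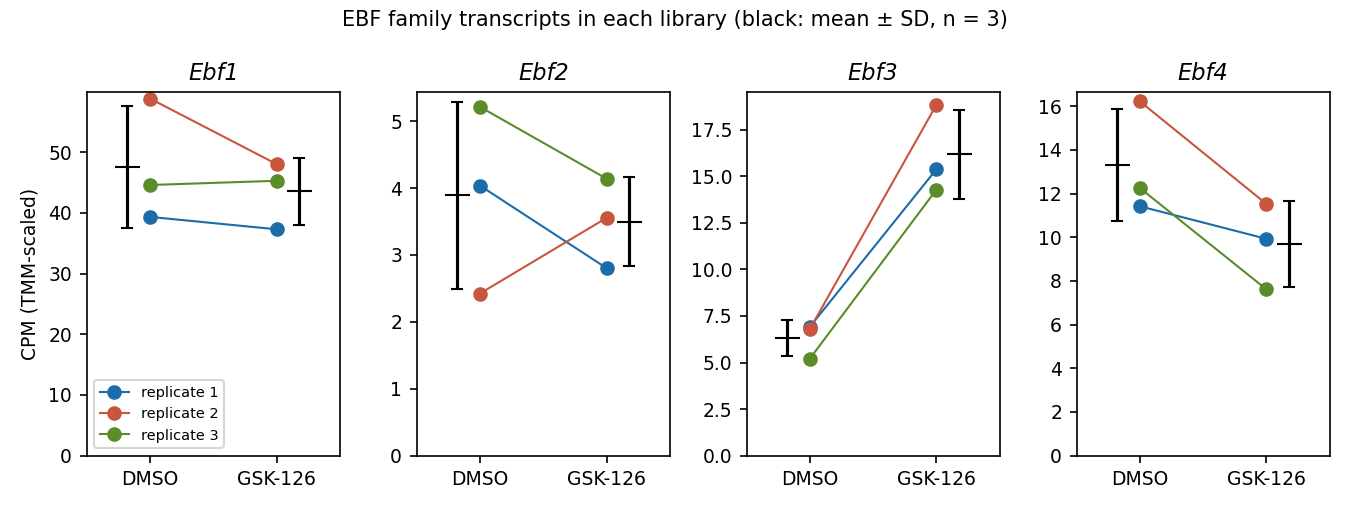
Level of each EBF gene in CPM scaled by TMM, with one panel per gene and a vertical axis from 0. Coloured points are libraries, lines join libraries of equal replicate number, and black marks give the mean ± SD of 3 libraries. The 3 GSK-126 points of Ebf3 sit between 14.3 and 18.8 CPM, above all of its DMSO points, while the groups of the other members overlap.

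On the log2 scale the edgeR fit over all genes gave Ebf3 a difference of 1.36 (SE 0.22) between GSK-126 and DMSO, and adding a block for replicate number gave 1.36 (SE 0.19). The 3 pairs gave 1.15, 1.47 and 1.45 for Ebf3. For Ebf1 the fitted difference was -0.13 (SE 0.18), with pairs at -0.077, -0.29 and 0.022. The pairs of Ebf2 did not share a direction, with -0.53, 0.55 and -0.33 around a fitted difference of -0.16 (SE 0.37). Ebf4 had a fitted difference of -0.45 (SE 0.24), and its pairs at -0.20, -0.49 and -0.69 were all below 0. So 1 member had a fitted difference above 0 and the other 3 had one below 0, where the median of all genes tested was -0.0071. Ranked by this difference from the top, Ebf3 was in place 22 of 16729 genes, and in place 3 of the 15178 genes with a mean log2 CPM over 1. These ranks restate how the family came to be chosen and are given as a description only.

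**Figure D2:**
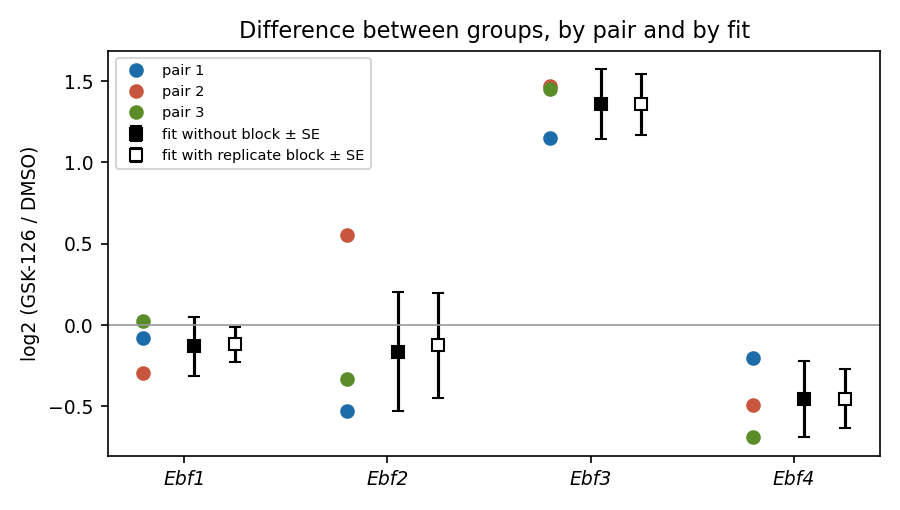
Log2 of the level with GSK-126 over that with DMSO for each EBF gene. Coloured points are the 3 pairs of equal replicate number, and squares are the differences from edgeR without (filled) and with (open) the replicate block, with bars of 1 SE. The 3 pairs of Ebf3 lie at 1.15 to 1.47, those of Ebf4 at -0.69 to -0.20, and those of Ebf1 and Ebf2 on both sides of 0.

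All 4 members passed the filter on low counts. The quasi-likelihood test of edgeR, adjusted by Benjamini-Hochberg over all genes, called 0 of them and 0 genes of the whole table without the block, a share of 0%. At an unadjusted p under 0.05 it had 296 genes higher and 369 genes lower. DESeq2 without the block called 1 member, Ebf3, and 21 of the 14611 genes to which it gave an adjusted p, or 0.144%. With the replicate block, edgeR called 1 member, Ebf3, in the direction of higher with GSK-126, and in that direction it called 561 genes or 3.35% of the table. A further 851 genes or 5.09% were called lower. Again nothing is read from the member count, since the contrast is the one on which the family was chosen.

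The fitted spread of the members was close to that of other genes at their level. With few libraries edgeR draws the spread of a gene towards that of genes at like level, so this closeness is partly set by the method. Without the block, the fitted CV of Ebf3 was 20.5%, against a median of 22.9% for 1064 genes of like level. The CV of Ebf4 was 22.3% against 22.6%, that of Ebf2 30.5% against 31.2%, and that of Ebf1 18.4% against 16.5%. With the block the CV was 13.2% for Ebf3, 13.3% for Ebf4 and 8.77% for Ebf1.

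Levels of different genes were compared per kb of exon, using the union of each gene's exons. With DMSO, Ebf1 was at 4.88 ± 1.03 and Ebf4 at 4.11 ± 0.793 CPM per kb, and with this length these neighbours differed by less than their SDs. Ebf3 followed at 0.684 ± 0.103 and Ebf2 at 0.562 ± 0.202 CPM per kb (SD, n = 3), and DMSO replicate 3 had Ebf2 above Ebf3. With the length of the longest transcript the DMSO levels lay further apart, at 7.96 ± 1.69 for Ebf1, 4.46 ± 0.861 for Ebf4, 1.26 ± 0.191 for Ebf3 and 0.748 ± 0.269 for Ebf2 CPM per kb, and Ebf3 was above Ebf2 in each library. Ebf1 was above Ebf4 in each library with both lengths. With GSK-126 the values were 4.46 ± 0.572 for Ebf1, 2.99 ± 0.608 for Ebf4, 1.75 ± 0.258 for Ebf3 and 0.505 ± 0.0967 for Ebf2 CPM per kb. There Ebf3 stood apart from Ebf2 in each library and below Ebf4 in each. The gap to Ebf4 also depended on the length used, since with the longest transcript Ebf3 was at 3.24 ± 0.476 and Ebf4 at 3.25 ± 0.659 CPM per kb with GSK-126.

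The summed level of the family did not separate the groups. It was 61.7, 84.3 and 67.3 CPM with DMSO and 65.4, 82.0 and 71.3 CPM with GSK-126, or 71.1 ± 11.8 and 72.9 ± 8.39 CPM (SD, n = 3). Without Ebf3, the other 3 members summed to 64.8 ± 11.6 and 56.7 ± 6.55 CPM. Ebf3 took 11.2%, 8.08% and 7.75% of the EBF counts with DMSO, with exact 95% binomial intervals of 8.67% to 14.2%, 6.38% to 10.1% and 5.97% to 9.87%. With GSK-126 it took 23.5%, 23.0% and 20.0%, with intervals of 20.7% to 26.5%, 20.1% to 26.2% and 16.7% to 23.7%. The intervals cover counting error only and not the spread between cultures. As the family was chosen on this contrast, nothing is read from the gap between the intervals of the groups. Ebf4 took 18.7 ± 0.532% and 13.3 ± 2.35%, Ebf1 66.6 ± 3.04% and 59.7 ± 3.37%, and Ebf2 5.72 ± 2.54% and 4.81 ± 0.863% (SD, n = 3). There were 0.136 ± 0.0344 units of Ebf3 CPM per unit of Ebf1 CPM with DMSO and 0.374 ± 0.0512 with GSK-126. Against Ebf4 the same ratio was 0.484 ± 0.106 and 1.69 ± 0.170.

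**Figure D3:**
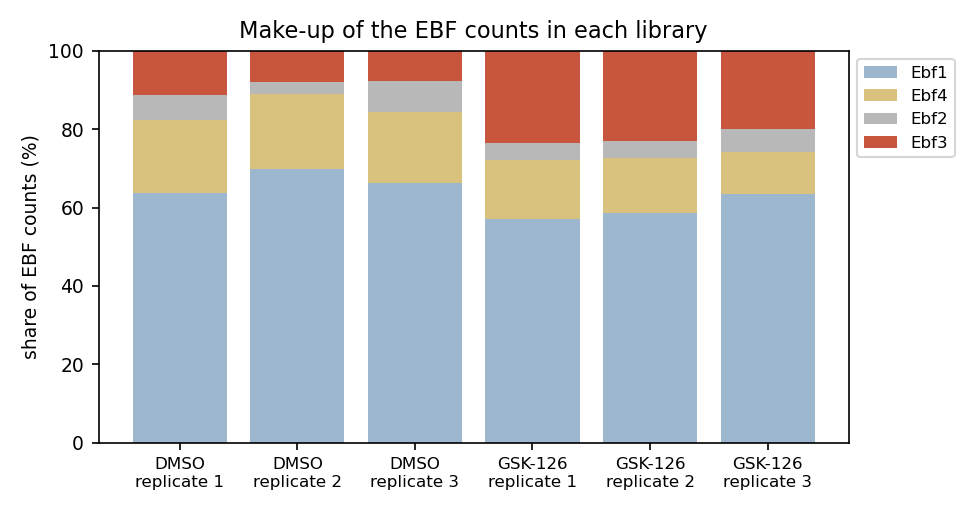
Share of each member in the EBF counts of a library, in percent, as bars stacked to 100 for the 6 libraries. Ebf3, at the top of each bar, took 7.75% to 11.2% with DMSO and 20.0% to 23.5% with GSK-126. Shares are of counts, with no correction for gene length.

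The members share no long stretch of sequence. Coding sequences of Ebf1 and Ebf3 were the most alike, with 79.5% identical bases where aligned, and those of Ebf2 and Ebf4 the least, with 70.8%. The longest run of identical bases between transcripts of any pair was 27 bases, for Ebf3 and Ebf4. Antisense genes overlapped the exons of a pair of members, and the strand setting of the counting is not given in the sources used here. Gm45278 shares 355 bp, or 3.85% of the Ebf3 exons, with Ebf3 on the opposite strand. It was at 0.692, 1.49 and 1.04 CPM with DMSO and 2.80, 2.69 and 2.67 CPM with GSK-126, from 6 to 37 counts. The levels of Gm45278 did not overlap between groups, in the direction of Ebf3. Its log2 difference was 1.32 (SE 0.40, edgeR adjusted p = 0.953 without the block and 0.0713 with it). Whether these reads come from Gm45278 or from Ebf3 was not tested. Gm10860 shares 424 bp, or 6.12% of the Ebf2 exons, and had 3 to 14 counts per library. The exons of Ebf1 and Ebf4 overlapped none of another gene.

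The nearest expressed coding genes had smaller differences than Ebf3. For each member the 3 nearest tested coding genes on each side were taken, which gave 24 genes at distances of 10.6 to 1507 kb. Their log2 differences lay between -0.41 and 0.37, and edgeR called 0 of the 24 without the block and 0 with it, with 0 and 5 at an unadjusted p under 0.05. DESeq2 also called 0 in both designs. Next to Ebf3, 9430038I01Rik at 61.1 kb had a log2 difference of -0.04 (SE 0.30), and Mgmt, a DNA repair gene at 63.4 kb, had 0.37 (SE 0.54). Glrx3, which codes for a glutaredoxin, had 0.23 (SE 0.13), and Ptpre, a tyrosine phosphatase gene, had -0.41 (SE 0.22). Tcerg1l had -0.29 (SE 0.14), with all of its GSK-126 libraries below its DMSO libraries. Such separation of groups was seen for 3 of the 24 neighbours, in either direction, and for 9.44% of all genes tested.

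**Figure D4:**
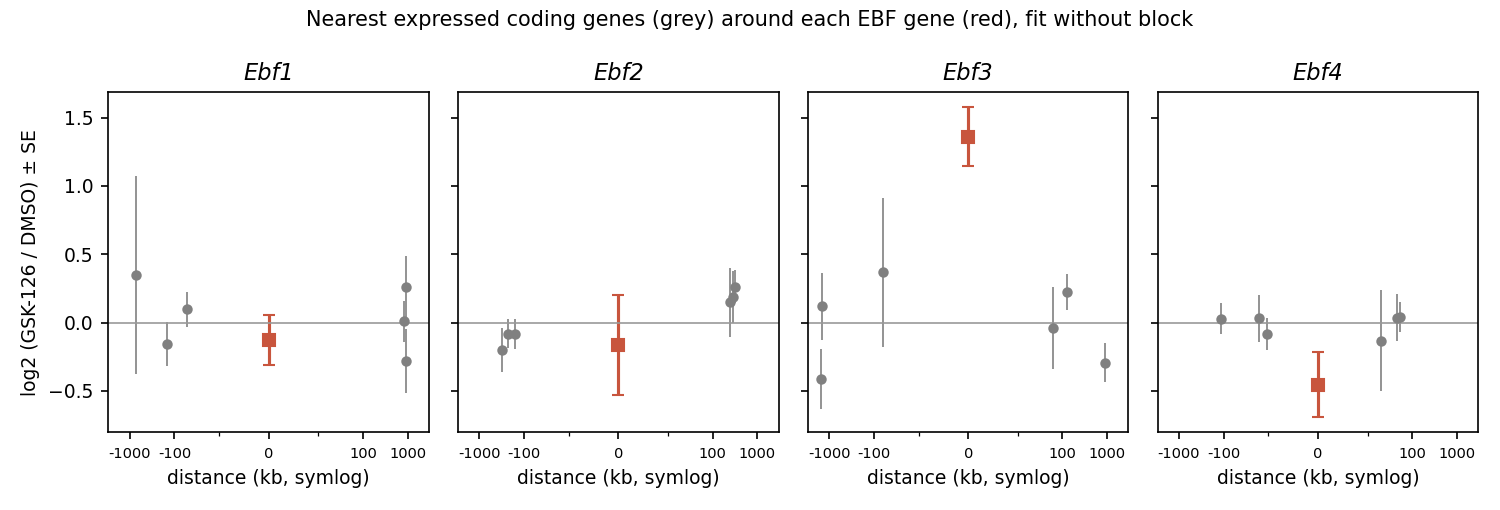
Log2 difference between GSK-126 and DMSO, with bars of 1 SE, for each EBF gene (red square at 0) and the 3 nearest tested coding genes on each side (grey points), by distance in kb on a symmetric log axis. The 24 neighbours lie between -0.41 and 0.37, and Ebf3 lies at 1.36.

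Genes that are known to work with EBF factors or to respond to them were read from 6 lists, 68 genes in all, of which 49 passed the filter on low counts. Without the block edgeR called 0 of the 49 genes, with 2 at an unadjusted p under 0.05, and DESeq2 also called 0. With the block edgeR called 7 higher and 4 lower, 22.4% of the 49 against 8.44% of all genes tested. The lists were chosen with earlier results of these data known, and the shares are not matched for expression level. No excess is therefore read from them, here or for the single lists below. The median log2 difference of the 49 genes was 0.017, beside -0.0071 for all genes. The calls are thus those of the fit with the block, and 3 of the 11, Cd53, Neurod1 and Pdgfrb, were called again with each pair of libraries left out in turn. DESeq2 with the block called 5 of the list genes, Cd53, Cebpb, Neurod1, Pdgfrb and Zfp521. It did not call Id2 (adjusted p = 0.227), Nhlh2 (0.196), Id4 (0.0848), Cdkn1a (0.0587) or Gnal (0.0568), and it gave Fabp4 no adjusted p.

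Among 17 cofactors and partners of EBF factors, all tested, 2 rose and 1 fell with the block, and the median log2 difference was -0.11. Id2, whose protein binds and holds back E proteins, partners of EBF1 in B-cell development, was at 213 ± 56.5 CPM in DMSO libraries and 284 ± 18.1 CPM in GSK-126 libraries (SD, n = 3). Its log2 difference was 0.45 (SE 0.097, edgeR adjusted p = 0.00536 with the block), and without pair 2 it was 0.25 for Id2 and not called (0.0626). Id4, of the same family, rose by 0.33 (SE 0.091, edgeR adjusted p = 0.0285 with the block), which was lost without pair 1 (0.264) and without pair 2 (0.0557). Zfp521, a zinc finger protein that blocks EBF1, was at 237 ± 41.1 and 194 ± 26.1 CPM (SD, n = 3). Its log2 difference was -0.28 (SE 0.072, edgeR adjusted p = 0.0164 with the block), and no fit with a pair left out called it (0.06 to 0.0813). Its relative Zfp423, which falls outside the rule for naming genes and was picked after its values were seen, was at 66.6 ± 3.97 and 58.5 ± 7.64 CPM and was not called.

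Of 15 neuronal bHLH and LIM factors that act before, beside or after EBF factors, 9 were tested and 2 fell with the block, with a median of -0.27. Neurod1, a driver of granule neuron differentiation, was at 520, 963 and 600 CPM with DMSO and 366, 677 and 452 CPM with GSK-126. Each GSK-126 library of Neurod1 lay below the DMSO library of its number, with a log2 difference of -0.47 (SE 0.068, edgeR adjusted p = 0.000111 with the block). Neurod1 is also 1 of the 13 granule neuron markers, of which 9 were called lower with the block. Nhlh2, another neuronal bHLH factor, had 19.0 to 36.2 CPM with DMSO and 17.1 to 22.4 CPM with GSK-126 (edgeR adjusted p = 0.0498 with the block), and its call was lost without pair 2 (0.315) and without pair 3 (0.151). It is also on the list of Cajal-Retzius neuron markers. Lhx1, a LIM factor of Purkinje cells, had a log2 difference of -0.29 (SE 0.14) with the block and was not called. Neurog1 and Isl1 had 0 counts in each library, where 3 counts are 0.229 to 0.405 CPM.

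The lists of classic EBF targets held 1 called gene each, of 4 tested in either list, and 8.44% of all genes tested were called with the block. Of 11 B-lymphocyte targets of EBF1, 4 were tested, and Blk and Igll1, genes of that lineage, had 0 counts in each library. Cd53, a tetraspanin gene expressed in blood cells and microglia, rose with the block from 46.5 ± 12.6 to 67.3 ± 20.1 CPM (SD, n = 3), with a log2 difference of 0.52 (SE 0.098, edgeR adjusted p = 0.00166). The 6 microglial markers summed to 149 to 320 CPM with DMSO and 205 to 373 CPM with GSK-126, and their part in the value of Cd53 was not tested. Pax5, the B-lymphocyte factor downstream of EBF1, was at 0 to 1.04 CPM with DMSO and 0.862 to 2.14 CPM with GSK-126 and was not called. Of 8 olfactory neuron targets 4 were tested, and Gnal, a G protein subunit of odour signalling that is also made in other neurons, fell with the block from 92.2 ± 27.4 to 72.6 ± 18.9 CPM (SD, n = 3, edgeR adjusted p = 0.0176). That call was lost without pair 2 (0.0895) and without pair 3 (0.121) for Gnal. The other tested olfactory targets were not called and had log2 differences on both sides of 0.

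All 7 cell cycle and survival genes that EBF3 is known to change in tumour cells were tested, with a median log2 difference of 0.15. Cdkn1a, which codes for the cell cycle inhibitor p21, was at 148 ± 79.2 and 175 ± 58.5 CPM (SD, n = 3). It was called higher with the block (log2 difference 0.31, SE 0.090, edgeR adjusted p = 0.0405), but not without pair 1 (0.117) or pair 2 (0.282), where the log2 difference was 0.28 and 0.19. Cdkn1b, Cdk2 and Mcl1 were not called. Of 11 mesenchyme and fat cell genes set by EBF1 and EBF2, 9 were tested and 3 rose with the block, with a median of 0.22. The tested genes of this list that were not called had log2 differences on both sides of 0. Fabp4, a fatty acid carrier of fat cells, was at 2.65, 2.61 and 7.82 CPM with DMSO and 4.85, 6.03 and 19.4 CPM with GSK-126. Its log2 difference was 1.16 (SE 0.24, edgeR adjusted p = 0.00343 with the block, 0.0974 without pair 3). Cebpb, a factor of early fat cell differentiation, rose by 0.49 (SE 0.11, edgeR adjusted p = 0.0092 with the block), which was lost without pair 1 (0.147) and without pair 2 (0.0583). Pdgfrb, the receptor that marks mural cells, rose from 116 ± 15.4 to 149 ± 24.9 CPM (SD, n = 3, edgeR adjusted p = 0.00459 with the block).

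**Figure D5:**
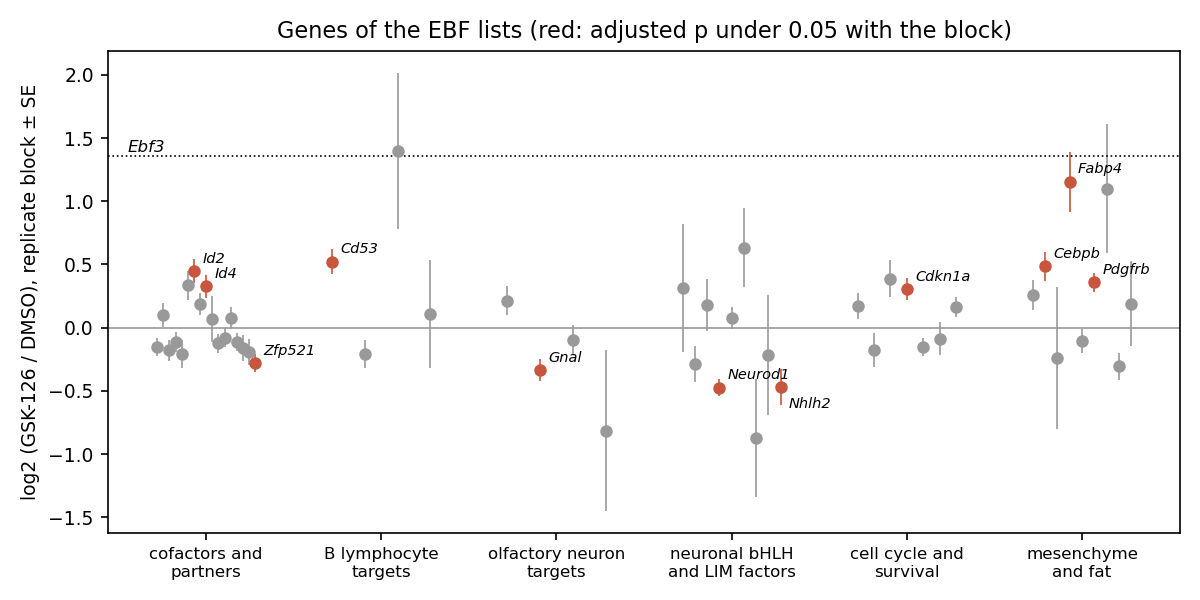
Log2 difference between GSK-126 and DMSO from edgeR with the replicate block, with bars of 1 SE, for the tested genes of 6 lists of EBF partners and targets. Red points are the genes called with the block, 7 higher and 4 lower, and the dotted line marks Ebf3 at 1.36. Without the block 0 of these genes were called.

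Markers of the cell types examined did not all move one way. The 10 mural cell markers summed to 639 to 946 CPM with DMSO and 821 to 1146 CPM with GSK-126. Of 8 tested mural markers, 3 were called higher with the block, Pdgfrb, Anpep and Acta2. Acta2 alone was at 401 ± 112 and 531 ± 92.1 CPM (SD, n = 3). Not called with the block were Rgs5 (log2 difference 0.37), Cspg4 (0.38), Notch3 (0.085), Vtn (0.042) and Abcc9 (-0.55, SE 0.50). Kcnj8, which was not tested, was lower with GSK-126, at means of 1.0 and 0.61 CPM. The sum of 12 Purkinje cell markers was 307 to 354 CPM with DMSO and 301 to 311 CPM with GSK-126, where Slc1a6 was called higher and Slc32a1 lower with the block, and Skor2 had 0 counts in each library. The sum of 8 markers of Cajal-Retzius neurons, which are known to make EBF factors, was 1075 to 1501 and 896 to 1377 CPM, with 2 genes lower with the block. For unipolar brush cells and cerebellar nuclei the 9 markers summed to 270 to 379 and 252 to 379 CPM, with 1 gene lower. Fibroblast and meningeal markers summed to 7376 to 9623 and 8114 to 10310 CPM, with 1 of 8 higher, and endothelial markers to 71.7 to 89.6 and 54.8 to 91.3 CPM, with 0 of 5 tested called and 1 at an unadjusted p under 0.05. In the oligodendrocyte lineage the sums were 427 to 737 and 491 to 752 CPM, with 1 of 7 higher, and of astroglial markers 2 of 7 were higher. Granule neuron markers summed to 5059, 8525 and 5885 CPM with DMSO and 3914, 6516 and 4475 CPM with GSK-126, for replicates 1 to 3. Each GSK-126 sum lay below the DMSO sum of its number. With the block, 9 of these 13 markers were called lower and 1 higher, Barhl1. Of 6 microglial markers, 1 was higher. Without the block edgeR called 0 of the 73 marker genes tested, with 7 at an unadjusted p under 0.05, and DESeq2 also called 0. With the block edgeR called 23 of the 73, and DESeq2 called 19 of the 79 in its fit. Over all genes tested, edgeR with the block called 3.35% higher and 5.09% lower. The marker lists were chosen with earlier results of these data known, so nothing is read from these counts. The part of any of these cell types in the levels of the EBF genes was not tested.

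Genes with the profile most like each member over the 6 libraries were taken by Pearson's r of log2 CPM, among genes with a mean log2 CPM over 1. The 6 points share their cultures, so r is given as a description. The genes most like Ebf3 were Atp8b2 (r = 0.998), Idi1 (0.996), Pus7 (0.994), Gm48342 (0.99) and Hmgcs1 (0.99). Idi1 and Hmgcs1 code for enzymes of sterol synthesis, and Gm48342 is antisense to Hmgcs1, so reads of those 2 genes cannot be told apart without the strand setting. Like Ebf3, each of the 5 had all GSK-126 libraries above all DMSO libraries, a trait that their choice by r with Ebf3 favours. Idi1 was at 33.1 ± 4.49 and 76.5 ± 7.31 CPM (SD, n = 3), a log2 difference of 1.21, whereas Atp8b2 was at 95.8 ± 1.52 and 106 ± 1.14 CPM, a log2 difference of 0.15. Pearson's r takes no account of the size of a difference, so nothing is read from these unlike sizes. Garem1 was the gene most like Ebf1 (r = 0.999), Pelo was most like Ebf2 (0.98) and Ubtf was most like Ebf4 (0.999). Among the members themselves r was highest for Ebf1 and Ebf4, at 0.593, and lowest for Ebf3 and Ebf4, at -0.572.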

How the data were processed

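The 6 libraries were sequenced by the study from polyA-selected RNA. The authors trimmed reads, aligned them to mm10 (GRCm38) with STAR 2.7.2b and counted reads on exons with HTSeq, and they deposited raw counts per gene for each library, with no normalization. Per the submitters' processing notes, Trimmomatic 0.38 did the trimming. Lines that name no gene held 58.7% to 60.7% of the listed reads and were left out. The symbols matched those of GENCODE M21 in full (55341 of 55341), which gave identifiers, exons and overlaps.

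Counts were scaled by TMM, and edgeR 4.0.16 in R 4.3.3 was used for the tests (filterByExpr, quasi-likelihood test, Benjamini-Hochberg adjusted p under 0.05 over 16729 genes). CPM are TMM-scaled and SEs are of the log2 difference. DESeq2 1.42.0, other normalizations, other filters, a replicate block and fits without each library or pair were run as alternatives, and the fits were tested on simulated data. The replicate numbers pair the libraries: deviations from group means had r of 0.561, 0.634 and 0.487 for equal numbers and 0.00638 or less otherwise. No 2 libraries were copies of each other.

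The family, the 6 EBF lists and the marker lists were chosen with earlier results of these data known. The genes named are drawn from the members, list genes that were called and up to 4 more per list with the smallest p in the fit with the block, the 5 genes most like each member, the 3 nearest tested coding genes on each side, and Ezh2 and Ezh1. Not each gene that meets this rule is named. Genes with 0 counts in each library, antisense genes over member exons and Zfp423 are named outside that rule. So are called marker genes and the mural markers that were not called. All of these were chosen after their values were seen. The result of 1 list gene is not reported here.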

Additional observations from a re-analysis of the deposited data

How the results depend on the processing

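The log2 difference of Ebf3 between GSK-126 and DMSO lay between 1.24 and 1.48 in the 17 alternative fits, and that of Ebf4 between -0.58 and -0.28. With single libraries left out, Ebf3 ranged from 1.24 to 1.44 and Ebf4 from -0.58 to -0.28. Ebf1 ranged from -0.23 to 0.054 with single libraries left out, the highest value coming without DMSO replicate 2, and Ebf2 from -0.41 to 0.11. The number of genes called was 0 without the block, 10 with no filter on low counts and 21 with DESeq2, and it was 0 with each library left out. With the replicate block, which uses the pairing by replicate number, edgeR called 1412 genes and DESeq2 951, and with 1 pair left out edgeR called 1088 (pair 1), 833 (pair 2) and 1277 (pair 3). Of the EBF list genes, edgeR with the block called 11, DESeq2 with the block 5, and edgeR with the block and 1 pair left out 7, 4 and 7. With the length of the longest transcript in place of all exons, Ebf1 was at 7.96 and Ebf3 at 1.26 CPM per kb with DMSO. With a single DMSO library left out, the level of Ebf1 was 4.30 to 5.30 CPM per kb and that of Ebf3 0.651 to 0.744. The shift with the longest transcript follows from the length used. The cause of the other shifts was not tested.

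Signs of small differences turned with single libraries left out. The log2 difference ranged from -0.17 to 0.81 for Id4 and from -0.10 to 0.80 for Id1, each lowest without GSK-126 replicate 1. It ranged from -0.061 to 0.77 for Cdkn1a and from -0.0026 to 0.97 for Mgmt, each lowest without GSK-126 replicate 3, and from -0.013 to 0.32 for Mcl1, lowest without DMSO replicate 2. It ranged from -0.19 to 0.11 for 9430038I01Rik and from -0.29 to 0.048 for Ezh2, each highest without DMSO replicate 1, and from -0.10 to 0.067 for Ezh1, highest without DMSO replicate 2. With the block and without pair 2 that of Ezh1 was 0.049. Precision is limited by 3 cultures per group and, for Ebf2, by its 26 to 60 counts per library.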
